A study of Arabidopsis thaliana with 6 samples.

Results

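The genes described here are the RING, U-box and F-box ubiquitin ligases and their partners that the authors' table of genes differing between wild-type and BIC1-YFP Arabidopsis seedlings contains. Rows were taken by their short description, which had to name F-box, U-box, ubiquitin, C3HC4, BTB or cullin in any case, or RING as a whole capital word. This gave 33 of the 1537 genes in the table. They are 21 RING and U-box genes, of which 17 carry only the name of the RING/U-box superfamily, 5 F-box genes, and 7 others. The 7 were counted to the pathway by their descriptions. They are 2 HECT ligases, 1 conjugating enzyme, 1 gene with a conjugating-enzyme hybrid domain and 3 BTB/POZ genes. The rule uses only the descriptions, but the set was chosen with earlier results of these data known, and the table itself holds only genes that the authors had selected as different, and every count below is read against the table as a whole.

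RNA was sequenced from whole 10-day-old seedlings of the Columbia ecotype, grown in long days on 1/2 MS medium, with 3 biological replicates of the wild type (Col-0) and 3 of a line carrying BIC1-YFP. BIC1 is a nuclear inhibitor of the blue-light receptor cryptochrome, here joined to yellow fluorescent protein, and the study asked about its part in brassinosteroid signalling and growth. The promoter that drives BIC1-YFP, the number of independent lines behind it and whether the endogenous BIC1 is intact are not given by the labels. Values are the authors' normalized abundances per gene, called units below, and the depth of the libraries is unknown. The BIC1 transcript (AT3G52740) was at 259.8 to 409 units in the wild-type libraries and at 14597 to 21868 in the BIC1-YFP libraries. Of the organ markers, leaf LHCB3 spanned 3365 to 4099.6 units in wild type and 6878.5 to 9898 in BIC1-YFP, and leaf RBCS3B 182780.0 to 198580.0 against 112990.0 to 139080.0. Root PRP3 spanned 190.1 to 321 units against 132 to 156, and flower SEP1 26.1 to 42.0 against 4.68 to 9.92. The seed gene CRA1 reached 83.6 units in the second BIC1-YFP library, where the other libraries held 0.219 to 6.94. The leaf, root and flower markers thus differed between the genotypes without overlap, with leaf LHCB3 higher and leaf RBCS3B lower in BIC1-YFP. Markers could be read only where the authors had selected them as different, so a difference in them was largely set by that selection. The part of these markers in the results below was not tested. In whole seedlings, fewer cells of a type and less RNA per cell cannot be told apart.

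Ubiquitin is passed from an activating enzyme to a conjugating enzyme and then, with the help of a ligase, onto a target protein, which is often sent to the proteasome. RING and U-box ligases hold the conjugating enzyme beside the target, whereas HECT ligases take up the ubiquitin themselves first. F-box proteins are the target-binding subunits of the SCF ligases, built on a cullin scaffold, and BTB proteins bind targets for another cullin. In seedlings such ligases control light signalling, perceive auxin and jasmonate through F-box proteins, and set the level of enzymes and membrane receptors.

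Promoter sequence was read for all 33 genes from RefSeq's TAIR10.1 assembly, as the 250 bases before each annotated gene start. The motifs searched, on both strands, were the G-box CACGTG, which PIF and BES1/BZR1 type factors can bind, the brassinosteroid element CGTGTG or CGTGCG, and the E-box CANNTG, which includes the G-box. No G-box was found in the 33 windows, against 6.5% of all 27443 nuclear protein-coding promoters and 10.0% of the 1465 such promoters of the table's genes. The brassinosteroid element was found in 2 windows, those of AT2G24240 (BTB/POZ with WD40 repeats) and AT5G01520 (AIRP2, a RING gene of abscisic acid responses), against 6.7% of all promoters and 8.8% of those of the table. An E-box was in 14 of the 21 RING and U-box windows (66.7%), 4 of the 5 F-box windows and 3 of the 7 others, against 55.3% of all promoters and 60.2% of those of the table. A match is only a run of letters in this window, and nothing follows from its absence. The windows with the brassinosteroid element are shown because they are the only such matches, with the element in capitals. Relative to the gene start its first base is at -55 in AT2G24240 and at -166 in AT5G01520.
AT2G24240, chr2:10310232-10310481, plus strand: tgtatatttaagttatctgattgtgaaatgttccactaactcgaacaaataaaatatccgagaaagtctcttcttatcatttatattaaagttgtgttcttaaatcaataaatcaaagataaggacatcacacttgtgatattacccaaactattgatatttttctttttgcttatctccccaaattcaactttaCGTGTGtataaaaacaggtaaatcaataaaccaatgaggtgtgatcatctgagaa
AT5G01520, chr5:206182-206431, plus strand: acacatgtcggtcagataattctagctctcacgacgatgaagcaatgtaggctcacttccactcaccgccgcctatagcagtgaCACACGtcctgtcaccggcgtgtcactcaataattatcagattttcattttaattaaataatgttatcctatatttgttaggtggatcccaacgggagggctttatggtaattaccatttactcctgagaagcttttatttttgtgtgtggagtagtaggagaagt

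The next windows belong to genes that changed together or stand out below, with every E-box in capitals. AT1G49200 and AT1G49210 are RING genes with 1 gene between them, and their transcripts align at 88.0% identity over 835 bases. AT1G23390 is the Kelch repeat F-box gene with 3 E-boxes in its window.
AT1G49200, chr1:18197977-18198226, plus strand: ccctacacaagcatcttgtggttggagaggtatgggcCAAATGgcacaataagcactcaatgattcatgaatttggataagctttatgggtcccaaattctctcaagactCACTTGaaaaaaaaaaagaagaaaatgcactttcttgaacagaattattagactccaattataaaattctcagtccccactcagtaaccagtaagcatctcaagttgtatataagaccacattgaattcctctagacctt
AT1G49210, chr1:18201639-18201888, plus strand: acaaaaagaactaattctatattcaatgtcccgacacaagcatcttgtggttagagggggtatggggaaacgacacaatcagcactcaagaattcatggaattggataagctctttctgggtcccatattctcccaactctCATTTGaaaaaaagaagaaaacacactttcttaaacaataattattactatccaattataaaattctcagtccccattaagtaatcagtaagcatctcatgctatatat
AT1G23390, chr1:8310917-8311166, minus strand: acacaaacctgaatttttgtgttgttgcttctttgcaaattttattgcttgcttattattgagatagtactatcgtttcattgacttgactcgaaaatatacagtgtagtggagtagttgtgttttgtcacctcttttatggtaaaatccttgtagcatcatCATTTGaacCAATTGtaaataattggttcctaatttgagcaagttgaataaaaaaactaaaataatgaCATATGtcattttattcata

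RING and U-box genes were mostly higher in BIC1-YFP. Of the 21, 17 had a higher mean and 4 a lower one, whereas 52.6% of the listed genes had a higher mean. In the limma test across the 1531 tested genes, with a call at an adjusted p under 0.05, 15 RING and U-box genes were called higher, 3 fell and 3 did not pass. The 17 and the 15 include AT5G37250, which passed the filter on low values only through its BIC1-YFP libraries and so had to differ. Of all tested genes 76.6% were called, 37.6% as higher and 39.1% as lower. The share of RING and U-box genes called (85.7%) is near that background, while the split between the directions was less even than in the table. Their median log2 fold change was 0.88, against 0.56 over all tested genes. No listed gene had an absolute log2 ratio of means under 0.525, so these signed medians largely follow the split between the directions. Without the sign the medians were 1.08 and 0.9. For 16 of the 21 (76.2%) no wild-type library reached into the BIC1-YFP range, where the background is 76%. The 16 and the medians also include AT5G37250. All 33 genes passed the filter.

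**Figure D1:**
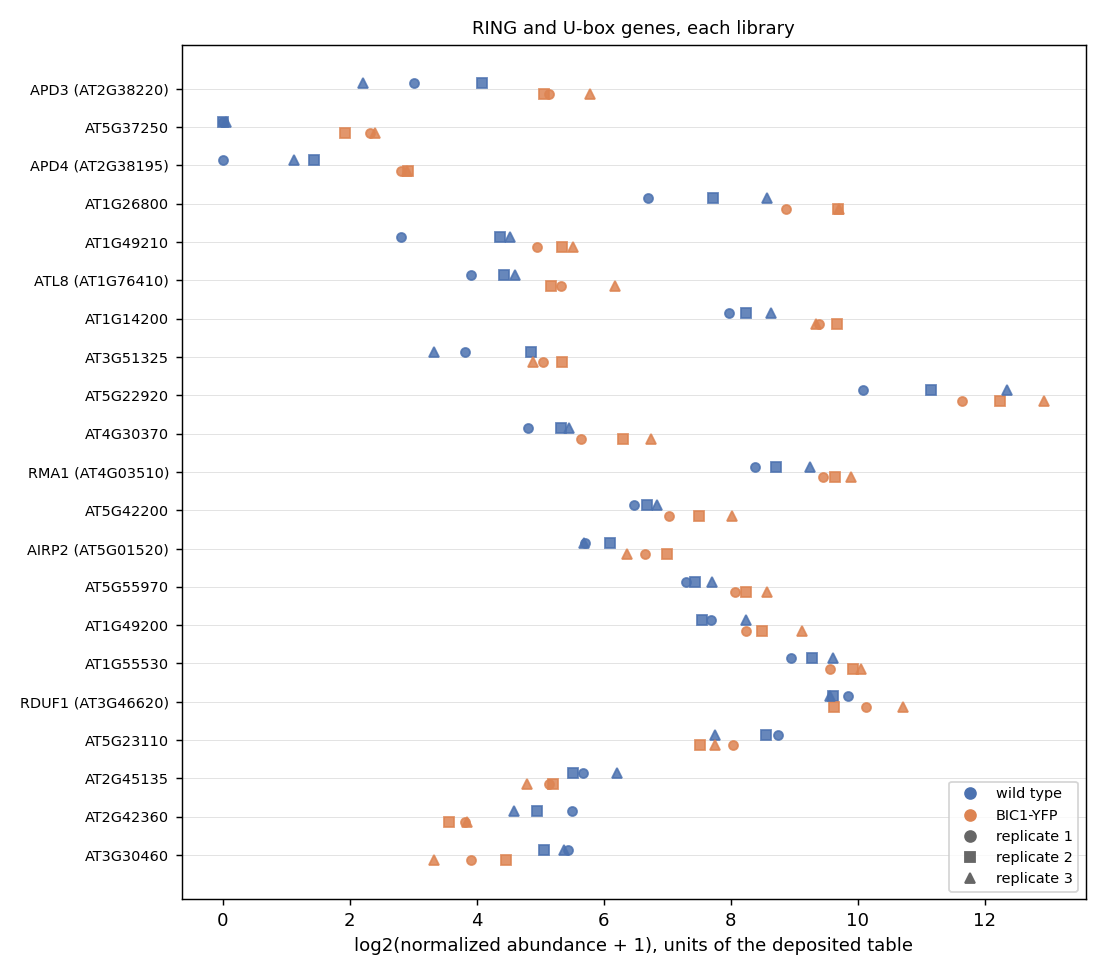
Abundance of the 21 RING and U-box genes in each library, as log2(units + 1) on the horizontal axis, ordered by fold change with the largest rise at the top. Blue marks are wild-type and orange marks BIC1-YFP libraries, and the shape gives the replicate. The BIC1-YFP libraries lie mostly to the right of the wild type in the 17 upper genes and to the left in the 4 at the bottom, and AT5G22920 shows the widest spread within a genotype.

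AT1G26800, a RING gene with no further name in the annotation, rose most after the low-level genes APD3 and APD4, leaving aside AT5G37250, all described below. It stood at 102, 209.8 and 380.3 units in wild-type replicates 1, 2 and 3 and at 466, 827 and 831 in BIC1-YFP. The lowest BIC1-YFP library lay above the highest wild-type library, although the wild-type libraries spanned a wide range. The mean rose 3.07-fold (log2 difference 1.76 with SE 0.48, adjusted p in limma = 0.0208). Its closest Arabidopsis relative by the deposited annotation, AT1G14200, is also a RING gene of the table and rose too. AT1G14200 stood at 251, 301 and 396 units in the wild type and at 667, 815 and 651 in BIC1-YFP, with a clear gap between the genotypes. Its mean rose 2.25-fold (log2 difference 1.19 with SE 0.21, adjusted p in limma = 0.00745), the smallest adjusted p of the 33 genes. Its call held whichever of the 6 libraries was left out (limma, adjusted p at most 0.0368), whereas that of AT1G26800 was lost without replicate 2 or 3 of BIC1-YFP (limma adjusted p between 0.051 and 0.0633).

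APD3 (AT2G38220) and APD4 (AT2G38195), RING genes named for aberrant pollen development, rose together from low levels. They lie on chromosome 2 of TAIR10.1 with 1 gene between them, at 16007891 to 16010932 and 16002263 to 16006654, on the plus strand. APD3 stood at 7.03, 16.0 and 3.62 units in the wild type and at 34.0, 32.3 and 54.2 in BIC1-YFP. The genotypes were well apart, and the mean rose 4.52-fold (log2 difference 2.22 with SE 0.51, adjusted p in limma = 0.0146). The authors' deposited log2 fold change for APD3 is smaller, at 0.954. APD4 was at 0.00256, 1.72 and 1.18 units in the wild type and at 6.01, 6.53 and 6.47 in BIC1-YFP (log2 difference 2.02 with SE 0.54, adjusted p in limma = 0.0201). The wild-type libraries of APD4 are close to 0 and its fold change depends on the pseudocount. The transcripts of the pair align at 98.1% identity over 1727 bases, so reads of one may have been counted for the other and they are not independent. The call of APD3 held with each library left out, and that of APD4 was lost without replicate 2 or 3 of BIC1-YFP (limma adjusted p between 0.0564 and 0.0619).

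AT5G37250, also a RING gene, was listed at 0.00139, 0 and 0.0391 units in the wild type and at 4.004, 2.79 and 4.28 in BIC1-YFP. It passed the filter on low values only through the BIC1-YFP libraries and so had to differ, and neither its call nor a p is given as a result. No fold is given because the wild type is at or near 0, and its transcript is 95.0% identical over 680 bases to that of AT5G37230, so its reads may not be its own. With any BIC1-YFP library left out it no longer passed the filter and was not tested.

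A further family group is the pair AT1G49200 and AT1G49210, whose promoters are printed above. They lie on the plus strand of chromosome 1 at 18198227 to 18199168 and 18201889 to 18202764, with 1 gene between them. AT1G49200 stood at 206, 186 and 302 units in the wild type and at 300.4, 358 and 558 in BIC1-YFP, with wild-type replicate 3 just above BIC1-YFP replicate 1. This was a 1.75-fold rise of the mean (log2 difference 0.79 with SE 0.29, adjusted p in limma = 0.0426). AT1G49210 stood at 6.03, 19.6 and 22.1 units in the wild type and at 30.0, 39.7 and 44.6 in BIC1-YFP, with no overlap, and rose 2.40-fold (log2 difference 1.37 with SE 0.49, adjusted p in limma = 0.0381). With 88.0% identity over 835 bases, reads of the more abundant AT1G49200 may have been counted for AT1G49210. The 2 rises may thus not be independent. AT5G42200, annotated with the same closest relative as AT1G49200, stood at 88.3, 101 and 113 units in the wild type and at 129, 180.2 and 258 in BIC1-YFP. Its groups did not overlap, and it rose 1.87-fold (log2 difference 0.85 with SE 0.28, adjusted p in limma = 0.0313). Each of these 3 calls was lost without replicate 1 or 2 of the wild type, or 2 or 3 of BIC1-YFP, and that of AT1G49210 also without BIC1-YFP replicate 1 (limma adjusted p between 0.0543 and 0.119 over the 3 genes).

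Some of the RING genes that rose have a known or annotated role. RMA1 (AT4G03510), a membrane-anchored ligase of the secretory pathway, stood at 331, 418 and 606 units in the wild type and at 701, 799 and 947 in BIC1-YFP. Every BIC1-YFP library exceeded every wild-type library, and RMA1 rose 1.80-fold (log2 difference 0.89 with SE 0.25, adjusted p in limma = 0.0227). AIRP2 (AT5G01520), which acts in abscisic acid responses, stood at 51.2, 67.3 and 50.8 units in the wild type and at 99.1, 126 and 81.2 in BIC1-YFP. Its groups did not overlap, and it rose 1.81-fold (log2 difference 0.84 with SE 0.25, adjusted p in limma = 0.0243). ATL8 (AT1G76410), of the membrane-bound ATL family, stood at 14.1, 20.4 and 23.3 units in the wild type and at 39.1, 34.9 and 71.7 in BIC1-YFP. It rose 2.52-fold without overlap (log2 difference 1.25 with SE 0.36, adjusted p in limma = 0.0231). IDF1 (AT4G30370), named for the degradation of the iron transporter IRT1, stood at 27.1, 39.3 and 43.0 units in the wild type and at 49.1, 78.3 and 106 in BIC1-YFP. It rose 2.13-fold, also without overlap (log2 difference 1.03 with SE 0.34, adjusted p in limma = 0.0316).

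The calls of RMA1 and IDF1 were lost without replicate 1 or 2 of the wild type, or 2 or 3 of BIC1-YFP (limma adjusted p between 0.0568 and 0.0926). AIRP2 was no longer called without replicate 1 of the wild type or 2 of BIC1-YFP (0.0632 to 0.0769), and ATL8 without replicate 1 or 2 of the wild type or 3 of BIC1-YFP (0.0508 to 0.0621).

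The remaining RING genes called higher have no name beyond their family. AT5G55970 stood at 157, 171 and 208 units in the wild type and at 268, 301 and 378 in BIC1-YFP, without overlap, and rose 1.77-fold (log2 difference 0.82 with SE 0.21, adjusted p in limma = 0.0182). AT3G51325 rose from 16.7 ± 9.93 to 33.4 ± 5.77 units (SD, n = 3), its lowest BIC1-YFP library (28.5) lying just above its highest wild-type library (27.9). AT1G55530 rose from 632 ± 146 to 928 ± 152 units (SD, n = 3) with overlapping libraries. These last calls are marginal, at limma adjusted p of 0.0482 and 0.0497, and AT3G51325 kept its call only without wild-type replicate 2. AT1G55530 was no longer called without replicate 1 or 2 of the wild type, or 2 or 3 of BIC1-YFP (limma adjusted p between 0.106 and 0.143), and AT5G55970 without BIC1-YFP replicate 2 (0.0527).

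A RING gene with a CHY zinc finger, AT5G22920 (RZPF34), whose loss reduces stomatal opening by the RefSeq note, had the highest abundance per kilobase of transcript among the RING and U-box genes. That level was 1896 units per kilobase in the wild type and 3515 in BIC1-YFP. It did not pass the test. Its libraries stood at 1081, 2268 and 5219 units in the wild type and at 3191, 4837 and 7851 in BIC1-YFP, so that wild-type replicate 3 exceeded 2 of the BIC1-YFP libraries. The log2 fold change was 1.08 (SE 0.58, adjusted p in limma = 0.111), and without wild-type replicate 3 the adjusted p was 0.0229. RDUF1 (AT3G46620), induced by drought and abscisic acid, also missed the threshold, at 923, 779 and 754 units in the wild type and 1114, 789.8 and 1672 in BIC1-YFP (limma, adjusted p = 0.133).

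RING genes that fell were few. AT2G42360 stood at 44.1, 29.8 and 23.1 units in the wild type and at 13.0, 10.8 and 13.4 in BIC1-YFP. AT3G30460 stood at 42.1, 32.5 and 40.4 units in the wild type and at 14.0, 21.0 and 9.09 in BIC1-YFP. The libraries of neither gene overlapped between the genotypes, and their means were 2.61-fold and 2.60-fold lower (log2 differences -1.27 and -1.39, SE 0.32 and 0.35, adjusted p in limma = 0.0182 and 0.0181). AT3G30460 held its call with each library left out, at an adjusted p of up to 0.0499, and AT2G42360 lost it without replicate 1 of the wild type or 2 of BIC1-YFP (limma adjusted p between 0.0517 and 0.0558). AT2G45135 fell from 56.1 ± 15.003 to 32.1 ± 4.86 units (SD, n = 3, limma, adjusted p = 0.0391), but its call was lost with any 1 of the 6 libraries left out (adjusted p from 0.0545 to 0.11). AT5G23110, a very long gene with an ATP-binding domain beside its RING finger, stood at 429, 373 and 216 units in the wild type and at 261, 182 and 215 in BIC1-YFP. It did not pass (limma, adjusted p = 0.0968), and its wild-type replicate 3 lay among the BIC1-YFP libraries. Without that library the adjusted p was 0.0212.

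**Figure D2:**
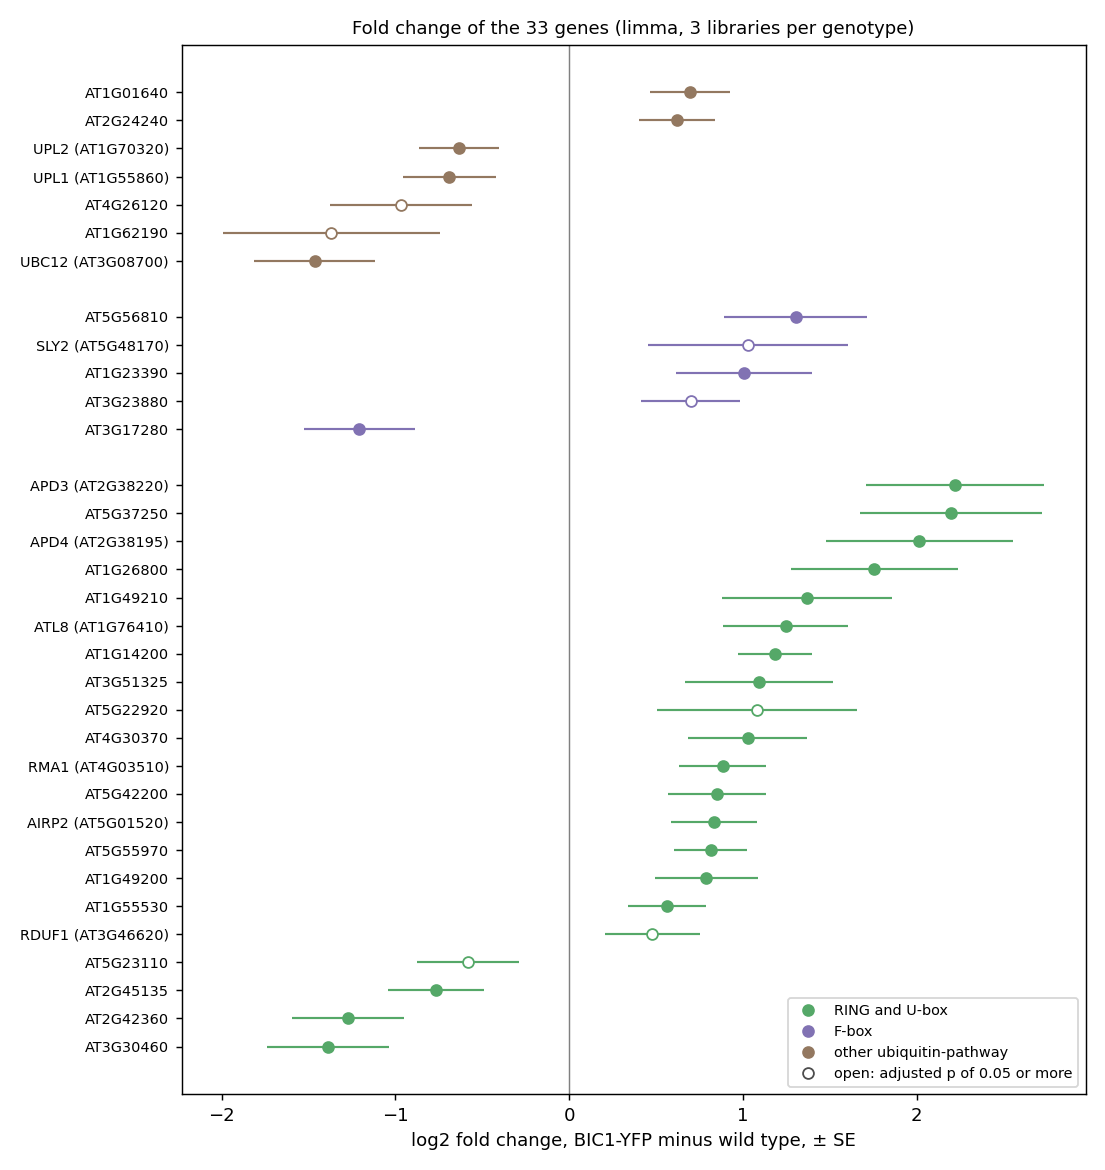
The log2 fold change of each of the 33 genes (BIC1-YFP minus wild type, horizontal axis) with limma's standard error, grouped as RING and U-box (green), F-box (purple) and other genes (brown). Filled points passed an adjusted p of 0.05 and open points did not. The filled point of AT5G37250, a gene that had to differ, is not given as a result. Values run from -1.46 for UBC12 to 2.22 for APD3, with 17 of the 21 green points to the right of 0.

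F-box genes were fewer. Of the 5, 4 had a higher mean in BIC1-YFP, of which 2 rose, and 1 fell. The share called (3 of 5) is not above the 76.6% of all tested genes. The median log2 fold change was 1.01. AT1G23390, a Kelch repeat F-box gene, had the highest abundance per kilobase of transcript among the F-box genes, at 1565 units per kilobase in the wild type and 3139.5 in BIC1-YFP. Its libraries stood at 1811, 3092 and 4262.5 units in the wild type and at 3691, 6178 and 8516 in BIC1-YFP. Wild-type replicate 3 lay above BIC1-YFP replicate 1, and replicate 3 was the highest library of both genotypes. The mean rose 2.01-fold (log2 difference 1.01 with SE 0.39, adjusted p in limma = 0.0478). The call was lost without replicate 1 or 2 of the wild type, or 2 or 3 of BIC1-YFP (limma adjusted p between 0.0849 and 0.133).

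AT5G56810, an F-box gene with FBD and leucine-rich domains, stood at 9.04, 5.13 and 12.2 units in the wild type and at 24.0, 28.8 and 15.4 in BIC1-YFP. Its groups did not overlap, and it rose 2.59-fold (log2 difference 1.30 with SE 0.41, adjusted p in limma = 0.028). AT3G17280, with an F-box associated interaction domain, stood at 18.1, 20.03 and 14.2 units in the wild type and at 6.01, 8.16 and 6.74 in BIC1-YFP. It was lower without overlap (log2 difference -1.21 with SE 0.32, adjusted p in limma = 0.0199). Both calls were lost without wild-type replicate 1 or 2, and that of AT5G56810 also without BIC1-YFP replicate 1 or 2 (limma adjusted p between 0.0544 and 0.0876).

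The other F-box genes did not pass. SLY2 (AT5G48170, also SNEEZY), a relative of the SLEEPY1 subunit through which gibberellin leads to the loss of DELLA growth repressors, stood at 26.1, 15.1 and 5.80 units in the wild type and at 17.0, 31.4 and 42.3 in BIC1-YFP. The genotypes overlapped (log2 difference 1.03 with SE 0.57, adjusted p in limma = 0.124). AT3G23880 stood at 440.5, 558 and 708 units in the wild type and at 645, 932 and 1243 in BIC1-YFP (log2 difference 0.70 with SE 0.29, adjusted p in limma = 0.0547). Here too wild-type replicate 3 reached above BIC1-YFP replicate 1, and without that wild-type library the adjusted p was 0.0367.

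**Figure D3:**
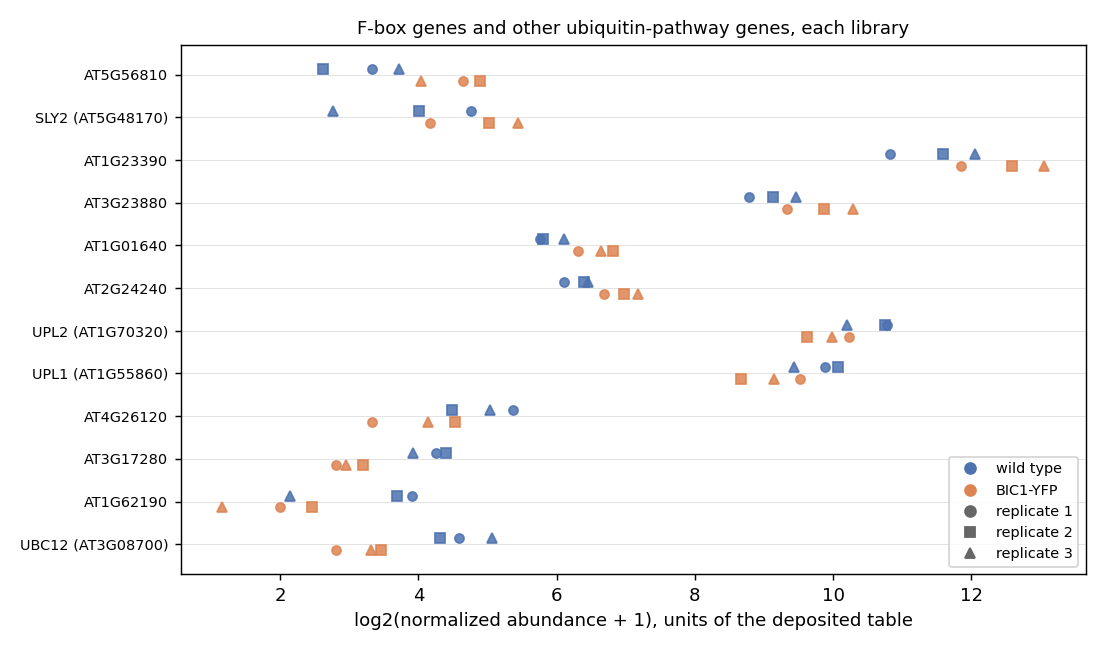
Abundance of the 5 F-box genes and the 7 other ubiquitin-pathway genes in each library, as log2(units + 1), ordered by fold change with the largest rise at the top. Blue is the wild type, orange BIC1-YFP, and the shape gives the replicate. AT1G23390 has the highest values, and UBC12 at the bottom shows the BIC1-YFP libraries (6.01 to 9.96 units) below the wild type (18.9 to 32.5 units).

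Some Kelch repeat F-box proteins bind phenylalanine ammonia-lyase, the entry enzyme of phenylpropanoid synthesis, or the type-B response regulators of cytokinin, and lead them to degradation. A list of 6 Kelch repeat F-box genes, whose targets are not all of these kinds, had 5 in the table, AT1G23390 and 4 that the descriptions do not call F-box genes because they are named there for their Kelch repeats alone. The mean was higher in BIC1-YFP for all 5, against 52.6% of the listed genes, and 3 of the 5 (60.0%) rose, where 76.6% of tested genes were called in either direction. This list was chosen with earlier results of these data known, so the shared direction is a description and not a test. KFB50 (AT3G59940) stood at 2094, 2109.5 and 2357 units in the wild type and at 3298, 3846 and 4019.7 in BIC1-YFP. The genotypes were far apart relative to the spread of their libraries, and KFB50 rose 1.70-fold (log2 difference 0.76 with SE 0.14, adjusted p in limma = 0.00718), holding its call with each library left out (adjusted p at most 0.0365). KMD3 (AT2G44130) stood at 222, 457 and 776 units in the wild type and at 770.0, 1371 and 1665.5 in BIC1-YFP, with wild-type replicate 3 just above BIC1-YFP replicate 1. It rose 2.62-fold (log2 difference 1.49 with SE 0.48, adjusted p in limma = 0.0296), a call lost without replicate 1 or 2 of the wild type, or 2 or 3 of BIC1-YFP (0.0614 to 0.0819).

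KFB20 (AT1G80440) stood at 758, 1212 and 2043 units in the wild type and at 1470.0, 2313 and 3427.5 in BIC1-YFP, and KFB01 (AT1G15670) at 219.7, 208 and 439 against 339, 332 and 646. Their genotypes overlapped and they did not pass (log2 differences 0.88 and 0.62, limma, adjusted p = 0.0865 and 0.154). In all 5 Kelch genes replicate 3 was the highest library of both genotypes, and without wild-type replicate 3 all 5 were called, as were 80% of all tested genes. Among the 809 genes of the table with a higher mean in BIC1-YFP, replicate 3 was the highest of both genotypes in 39.6%.

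**Figure D4:**
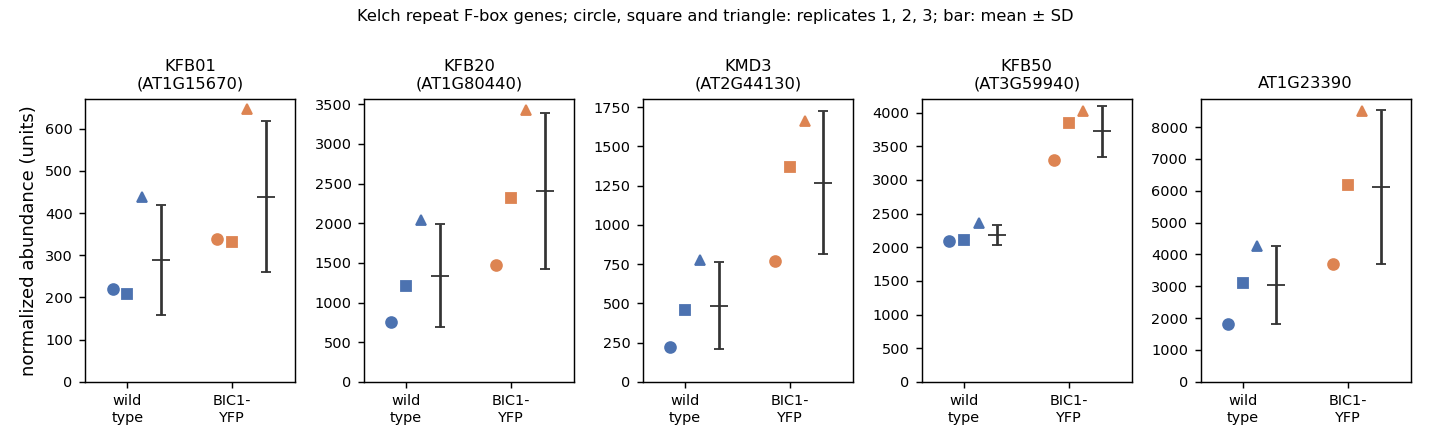
Normalized abundance (units, vertical axis from 0) of the 5 listed Kelch repeat F-box genes, with each library as a point (circle, square and triangle for replicates 1, 2 and 3) and the mean ± SD beside it, wild type in blue and BIC1-YFP in orange. KFB50 has tight, separate groups, and in the other panels wild-type replicate 3 exceeds BIC1-YFP replicate 1.

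The 7 other genes of the pathway were mostly lower in BIC1-YFP, with 3 that fell, 2 that rose and 2 lower ones that did not pass. AT1G62190, which did not pass, is counted here by its description alone. Its closest relative in the deposited annotation is a fatty acid desaturase. The 71.4% called is near the 76.6% of all tested genes, of which 39.1% were called lower and 37.6% higher. Their median log2 fold change was -0.69. UBC12 (AT3G08700), a ubiquitin-conjugating enzyme, stood at 23.1, 18.9 and 32.5 units in the wild type and at 6.01, 9.96 and 8.97 in BIC1-YFP. All BIC1-YFP libraries were below all wild-type libraries, and the mean was 2.99-fold lower (log2 difference -1.46 with SE 0.35, adjusted p in limma = 0.0157). Its call held with each library left out (adjusted p at most 0.042).

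UPL1 (AT1G55860) and UPL2 (AT1G70320), large HECT ligases, fell together. UPL1 stood at 944, 1076 and 693 units in the wild type and at 732, 406 and 566 in BIC1-YFP. UPL2 stood at 1764, 1729 and 1178 units in the wild type and at 1205, 783 and 1014.5 in BIC1-YFP. In both, wild-type replicate 3 lay below BIC1-YFP replicate 1, so the genotypes overlapped. The means were 1.59-fold and 1.56-fold lower (log2 differences -0.69 and -0.64, SE 0.27 and 0.23, adjusted p in limma = 0.0476 and 0.0399). The most identical stretch of their transcripts aligns at 95.8% identity over 801 bases, and any less identical stretches are not given. Some reads may thus be shared and the falls are not independent.

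Of the BTB/POZ genes, which supply target-binding subunits to cullin ligases, 2 rose. AT2G24240, whose promoter is printed above, stood at 68.2, 83.4 and 86.9 units in the wild type and at 102, 125 and 143 in BIC1-YFP, without overlap (log2 difference 0.62 with SE 0.22, adjusted p in limma = 0.0364). AT1G01640 stood at 53.2, 54.6 and 68.2 units in the wild type and at 78.1, 111 and 98.6 in BIC1-YFP, again without overlap (log2 difference 0.70 with SE 0.23, adjusted p in limma = 0.0311). The calls of these BTB genes and of UPL1 and UPL2 were each lost without replicate 1 or 2 of the wild type, or 2 or 3 of BIC1-YFP (limma adjusted p between 0.0701 and 0.143). AT4G26120, an ankyrin and BTB gene whose closest relative by the deposited annotation is the salicylic acid regulator NPR1, was lower but did not pass, at 40.1, 21.5 and 31.7 units in the wild type and 9.02, 22.0 and 16.6 in BIC1-YFP (limma, adjusted p = 0.0604). AT1G62190, with a Kua ubiquitin-conjugating hybrid domain, also did not pass, at 14.0, 11.9 and 3.401 units in the wild type and 3.01, 4.53 and 1.24 in BIC1-YFP (limma, adjusted p = 0.0745).

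Genes better known for their part in light and hormone signalling were mostly outside the table. Of 87 genes in 9 lists of the pathway, 6 were in the table, namely the 5 Kelch F-box genes and SLY2. The table held none of the 12 light-signalling ligases, such as COP1, the SPA genes and the F-box genes ZTL and FKF1. It held none of the 8 ligases linked to brassinosteroid, such as BRH1, PUB12 and PUB13, and none of the 10 immunity ligases, the 9 stress RING genes, the 12 BTB genes, the 8 cullin and SCF core genes or the 12 ubiquitin, activating and conjugating enzyme genes of those lists. Among 10 hormone F-box genes, including the auxin receptor TIR1 and the jasmonate receptor COI1, SLY2 was listed and not called. Genes outside the authors' selection are not analysed here, and their absence from the table does not show that they did not change.

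The libraries differed within the genotypes. Of the 23 genes with a higher mean in BIC1-YFP, 17 had replicate 3 as the highest library of the wild type (73.9%), against 445 of the table's 809 such genes. In 14 of the 23 replicate 3 was the highest library of both genotypes (60.9%, against 39.6%). What sets replicate 3 apart is not given by the labels, and its part in these results was not tested. The 26 genes called with all libraries include AT5G37250, which had to differ. Of the 26, 8 were still called without wild-type replicate 1, 11 without replicate 2 and 24 without replicate 3. Of all called genes that could be tested in those fits, 51.5%, 50.6% and 90.3% were still called. Of the 25 genes that could be tested, 21, 6 and 9 were still called on leaving out BIC1-YFP replicates 1, 2 and 3, against 77.1%, 37.4% and 60.1% over the table. The table thus lost calls to the same libraries, but less often. In each fit that cost most of these genes their call, they kept a smaller share than the table did. Their share was larger only when the library left out was the third of the wild type or the first of BIC1-YFP. Without wild-type replicate 3 the calls over the 33 genes came to 28, and over the table to 80% of tested genes. Only 4 of the 33 (APD3, AT1G14200, AT3G30460 and UBC12) kept their call whichever library was left out. This is a smaller share than the background of 24.2% of tested genes. No gene of the 33 was called when limma's p-values were adjusted over 21575 tests, where 3.27% of tested genes were. That total is the smallest that fits the authors' adjusted p in 645 of the table's genes. In those the deposited log2 fold change did not clearly exceed, in size, the log2 ratio of means. The deposited adjusted p do not all follow 1 adjustment, since AT1G01640 has a larger deposited p than AT3G30460 but a smaller adjusted p. At an unadjusted limma p under 0.05 there were 28 of the 33, where the background is 81.3%. The authors' deposited table gives an adjusted p under 0.05 for all 33, which their selection had fixed.

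**Figure D5:**
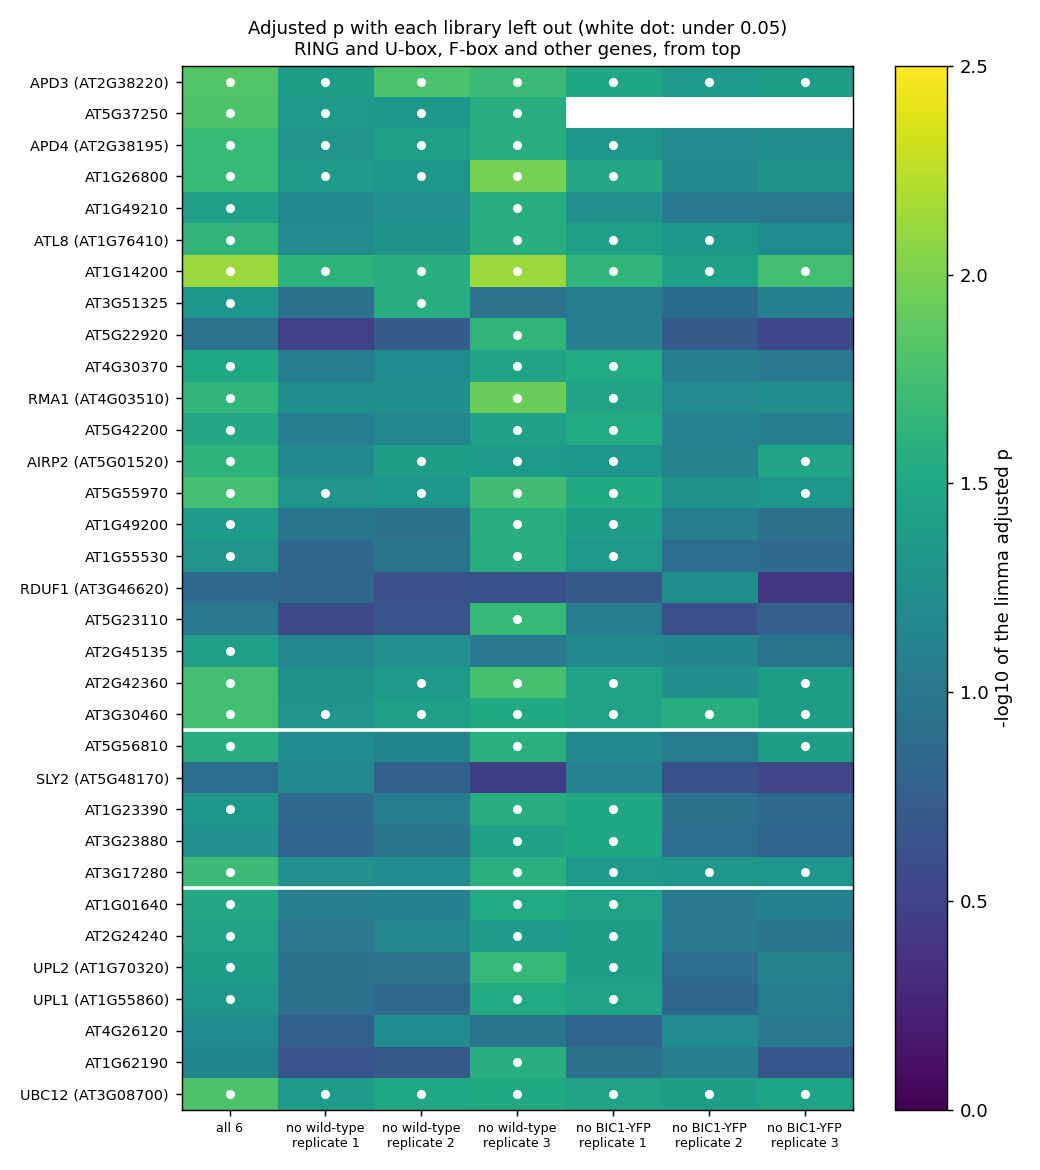
The limma adjusted p of each of the 33 genes (rows, from the top RING and U-box, F-box and other genes) with all 6 libraries and with each library left out (columns), as -log10 in colour, where a white dot marks a value under 0.05. Empty cells are fits in which AT5G37250 no longer passed the filter. The column without BIC1-YFP replicate 2 has the fewest dots, and the rows with a dot in every column are APD3, AT1G14200, AT3G30460 and UBC12.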

How the data were processed

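RNA-seq libraries (Illumina HiSeq, per the labels) came from 3 wild-type and 3 BIC1-YFP samples. The submitters' processing notes name TAIR10 as the genome and Cufflinks for expression values, with no version, and no source used here names the aligner, the scaling or the test. The authors deposited 1 table of 1537 selected genes (largest adjusted p 0.0499) that holds a normalized signal for each library and genotype, log2 fold changes, and p-values before and after adjustment. The smallest absolute log2 ratio of the deposited means was 0.525. In replicate 1 of both genotypes 95.9% and 100% of values under 15 lay within 0.05 of a whole number, against 6.1% to 17.4% in the others. The values are thus not per length. Whole reads were not taken back for any library. Only selected genes are listed, so depth is unknown, and no interval from counts is given.

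Genes with at least 1 unit in 3 or more of 6 libraries (1531) were put on log2(value + 1) and tested between genotypes by limma 3.58.1 (R 4.3.3) using a variance trend, no covariate and Benjamini-Hochberg adjustment over all of them. This scale understates changes of low genes. Folds are ratios of means, and folds and log2 values are recomputed from the libraries. The deposited log2 fold changes differ from these in both directions, as in APD3 (0.954 against 2.22) and AT1G26800 (2.342 against 1.76). Why they differ was not tested. The script was tested on simulated data. Selection by the authors makes the adjustment lenient. Promoters and transcripts came from TAIR10.1 (all 33 genes matched by locus tag), and transcripts were aligned with blastn (BLAST+ 2.17.0, at least 100 bases). Only the most identical stretch of each gene pair is given. The members and lists were chosen with earlier results of these data known. Named were all members, with the most changed called ones of each class and direction (up to 8 or 6) in full, and role-list genes. Alternatives were other pseudocounts, filters, scaling, no trend, a replicate block, thresholds, an adjustment over more tests and libraries left out. Replicates of a genotype are called biological by the labels, which do not say how cultures were separated.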

Additional observations from a re-analysis of the deposited data

How the results depend on the processing

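All alternatives were planned. No gene of the 33 or of the 4 further Kelch genes changed direction in those of the 17 alternatives in which it was tested. AT5G37250 was not tested at 5 units, without any one BIC1-YFP library or without replicate 3 of both genotypes, nor AT1G62190 at 5 units. The 1173 calls over all tested genes were 441 to 1219 with 1 library left out, 507 at an absolute log2 fold change of at least 1 and 50 over 21575 tests. With 1 library left out, RING and U-box calls (15 higher, 3 lower) numbered 3 to 15 higher and 1 to 3 lower, F-box calls (2 and 1) 0 to 3 and 0 to 1, and other calls (2 and 3) 0 to 2 and 1 to 4. A fit with fewer libraries has less power, and without wild-type replicate 3 the calls over all tested genes still came to 1219. Why the libraries differ in this was not tested. Over 21575 tests, each of these 6 counts was 0. At a minimum of 1, 9 RING and U-box genes were called higher, and 0 other genes higher and 1 lower. Without a trend, 1 F-box gene was called higher and 1 other gene lower. Without replicate 3 of both genotypes, 0 other genes were called higher. The cause was not tested. The authors' adjusted p called 4 F-box genes higher and 5 others lower, fixed by their selection.

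Replicate numbers do not pair the samples by the labels, and same-numbered libraries deviated together for numbers 1 and 3 (correlations 0.42 and 0.44) but hardly for 2 (0.04). BIC1-YFP replicate 2 correlated more with wild-type replicate 1 (0.09). With the replicate block limma called 1445 genes, 16 RING and U-box genes higher and 4 lower, 3 F-box genes higher and 1 lower, and 2 others higher and 4 lower, and 6 of the 37 named genes gained a call. Unknown depth and 3 libraries a genotype limit the low genes most.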

Other observations

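AT1G62190 entered the set through the words ubiquitin conjugating in its description, yet its closest relative in the deposited annotation is fatty acid desaturase A (FADA, AT4G27030), an enzyme of chloroplast lipids, and not a conjugating enzyme. Their transcripts align at 83.0% identity over 763 bases. FADA is in the table and was also lower, at 867, 718 and 809 units in the wild type and 509, 464 and 662 in BIC1-YFP, without overlap (log2 difference -0.56 with SE 0.19, adjusted p in limma = 0.0309). FADA was chosen after its values were seen.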
